A study of Mus musculus with 8 samples.

Results

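Monoamine neurotransmitters are inactivated by enzymes that oxidise them, and the enzymes that make them depend on a cofactor, tetrahydrobiopterin, that has its own synthetic pathway. The 8 genes examined here encode enzymes of these 2 functions together with 1 enzyme that converts noradrenaline: Maoa, Maob, Aldh2, Pnmt, Gch1, Qdpr, Spr and Pts. They were found as every probe set (a group of short probes that reports 1 transcript on the array) whose only gene symbol in the platform annotation was 1 of these names. This gave 13 probe sets for 7 genes, of 22626 probe sets tested. Maob was not analysed here, for want of a probe set with that symbol alone. RNA came from whole brain of male C57/B6 mice, 3 months old, and each sample was hybridised to its own Affymetrix Mouse430A_2 array. In 4 mice SIRT1, an NAD-dependent protein deacetylase, had been knocked out in the brain (BSKO), and the 4 controls were their wild-type littermates (WT). The promoter or Cre line behind the knockout and the deleted part of Sirt1 were not given in the sources used here.

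Monoamine oxidase A, encoded by Maoa, oxidises serotonin, noradrenaline and dopamine at the outer mitochondrial membrane, and aldehyde dehydrogenases such as the mitochondrial ALDH2 then turn the resulting aldehydes into acids. Tetrahydrobiopterin is the cofactor of tyrosine hydroxylase and of the tryptophan hydroxylases. It is made from GTP by GTP cyclohydrolase 1 (Gch1), 6-pyruvoyltetrahydropterin synthase (Pts) and sepiapterin reductase (Spr) in turn, and quinoid dihydropteridine reductase (Qdpr) regenerates it after use. Phenylethanolamine N-methyltransferase (Pnmt) makes adrenaline from noradrenaline, in the adrenal medulla and in small groups of brainstem neurons.

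The deposited values are log2 values centred on 0 for each probe set, so they show differences between arrays but no level of expression, and the tissue label could not be checked against the level of brain markers. A lower value in whole tissue can mean fewer cells of a type or less RNA per cell, and these cannot be told apart. BSKO 2 stood apart: its values had an SD of 0.831 over all tested probe sets, against 0.222 to 0.314 on the other BSKO arrays and 0.150 to 0.220 on the WT arrays. For beta-actin the 5' minus 3' difference was -2.44 on BSKO 2, against -0.104 to 0.489 on the other 7 arrays. For Gapdh it was -2.43 on BSKO 2, against -0.075 to 0.095 on the others. As these probe sets are centred too, the values show shifts between arrays and not the 5' to 3' signal ratio of any array. Differences are therefore given with all 8 arrays and without BSKO 2. Sirt1 itself had values of 0.076, -1.46, -0.20 and -0.059 on BSKO 1 to 4, against 0.0041, -0.0041, 0.082 and 0.29 on WT 1 to 4. Its difference did not pass the test with 8 arrays (-0.50, limma adjusted p = 0.549) or without BSKO 2 (-0.15, adjusted p = 0.428).

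Differences were tested with limma over all 22626 probe sets, with Benjamini-Hochberg adjustment and a threshold of 0.05. With 8 arrays none of the 13 probe sets passed, and 3 had an unadjusted p under 0.05, where 0.0309% of all probe sets passed and 10.8% had such a p. Without BSKO 2, 1 of the 13 passed, a Pnmt probe set that was higher in BSKO, where 1.63% of all probe sets passed in either direction and 0.495% as higher. The median difference (BSKO minus WT) over the 13 was -0.0030 with 8 arrays and -0.030 without BSKO 2, beside 0.022 and 0.0089 over all tested probe sets. All 4 BSKO values lay above all 4 WT values for 4 of the 13, 2 of Aldh2 and 2 of Pnmt, and below them for 1, that of Maoa, whose BSKO 1 value is treated apart further on. Among all probe sets 5.67% were separated upward and 6.66% downward.

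**Figure D1:**
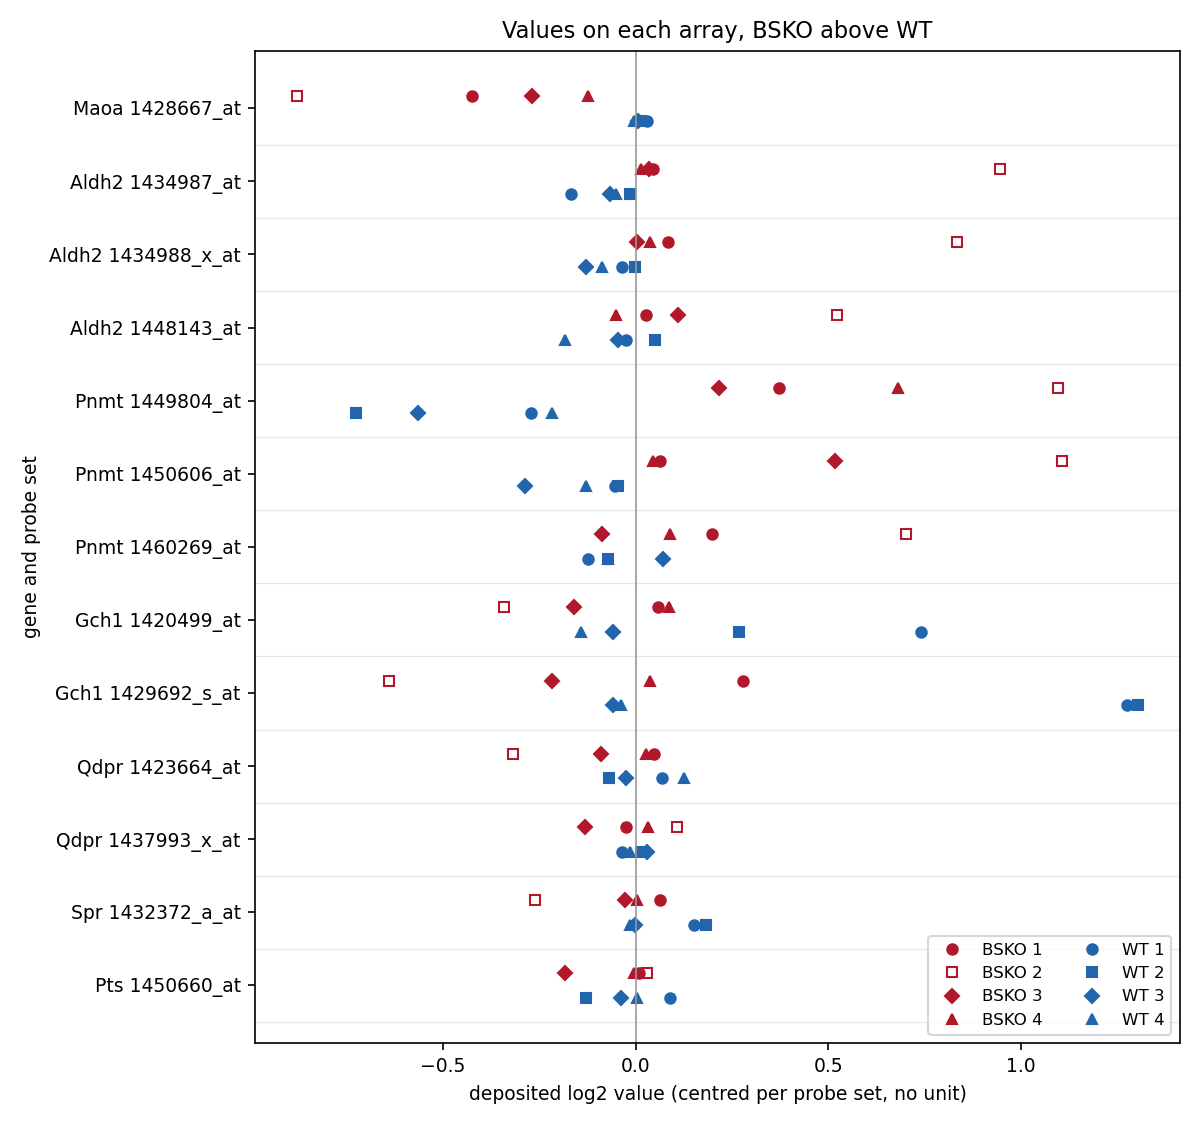
Deposited log2 values (x axis, centred per probe set) of the 13 probe sets (y axis) on each array, with the 4 BSKO arrays in red above the 4 WT arrays in blue, and the open square for BSKO 2. The Pnmt probe set 1449804_at has all BSKO points above 0.21 and all WT points below -0.21, BSKO 2 is the farthest point for Maoa, Aldh2 and Pnmt, and WT 1 and WT 2 are the 2 highest points of Gch1.

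Pnmt was the member with a called change. Its probe set 1449804_at had values of 0.37, 1.10, 0.22 and 0.68 on BSKO 1 to 4, against -0.27, -0.73, -0.57 and -0.22 on WT 1 to 4. Every BSKO array was above every WT array, with the smallest gap between BSKO 3 and WT 4. The mean was 0.59 ± 0.39 (SD, n = 4) in BSKO and -0.45 ± 0.24 in WT (SD, n = 4), a difference of 1.04 (SE 0.21, 95% interval 0.56 to 1.51), or 2.05-fold. This did not pass over all probe sets (limma adjusted p = 0.153). Without BSKO 2 the probe set rose by 0.87 (SE 0.16, 95% interval 0.51 to 1.23), or 1.83-fold, and passed (limma adjusted p = 0.0413).

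The other Pnmt probe sets differed in the same direction and did not pass. Probe set 1450606_at had 0.063, 1.11, 0.52 and 0.045 on BSKO 1 to 4, against -0.053, -0.045, -0.29 and -0.13 on WT 1 to 4. The groups did not overlap, although BSKO 1 and BSKO 4 lay close to WT 1 and WT 2. Its difference was 0.56 (SE 0.23, limma adjusted p = 0.439) with 8 arrays and 0.34 (SE 0.13, adjusted p = 0.205) without BSKO 2. Probe set 1460269_at had 0.20, 0.70, -0.087 and 0.090 on BSKO 1 to 4, against -0.12, -0.072, 0.072 and -0.073 on WT 1 to 4. Here BSKO 3 fell among the WT arrays, and the difference was 0.27 (SE 0.17, adjusted p = 0.546) with 8 arrays and 0.12 (SE 0.088, adjusted p = 0.501) without BSKO 2. Thus the 3 probe sets of 1 gene gave differences between 0.12 and 0.87 in the fit without BSKO 2, and the smallest had a 95% interval of -0.088 to 0.32, below the estimate of the largest.

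As the mean of its 3 probe sets, tested over 12393 genes, Pnmt differed by 0.62 with 8 arrays (SE 0.17, limma adjusted p = 0.245) and by 0.44 without BSKO 2 (SE 0.064, adjusted p = 0.0250), where 2.15% of all genes passed. It was the only member to pass on this scale too. The call without BSKO 2 was narrow. For probe set 1449804_at it held when BSKO 1 was also left out (limma adjusted p = 0.0442). It was lost when BSKO 3 (0.0679), BSKO 4 (0.121), WT 1 (0.0871), WT 2 (0.114), WT 3 (0.102) or WT 4 (0.0770) was left out, while the difference stayed between 0.74 and 0.97. The mean of the 3 probe sets behaved alike, passing without BSKO 1 (0.0253) and missing without any 1 of the other 6 arrays (0.0554 to 0.0883). With all 8 arrays probe set 1449804_at did pass after quantile normalization (adjusted p = 0.0214), with trend and robust settings (0.0422) and with array weights (0.00417). In turn these settings called 678, 108 and 2617 of all 22626 probe sets, where the main fit called 7. The probe set did not pass with the replicate number as a block (adjusted p = 0.324) or with a term for replicates 1 and 2 against 3 and 4 (0.135). With the striatal marker median fitted as a covariate it also did not pass, with 8 arrays (1.08, SE 0.32, adjusted p = 0.636) or without BSKO 2 (0.79, SE 0.24, adjusted p = 0.306). That median was itself higher on every BSKO array (0.059 to 1.12) than on any WT array (-1.94 to 0.0057). The fit therefore cannot fully part it from genotype, and no conclusion is drawn from these values.

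No gene listed for adrenaline-making and chromaffin cells passed. Of that list of 8 genes 7 were measured (Dbh, Th, Chga, Chgb, Phox2a, Hand2 and Npy), and in both limma fits the count was 0, also at an unadjusted p under 0.05. Of all 12393 genes 12.2% had such a p with 8 arrays and 21.2% without BSKO 2, the shares against which the gene lists are read. The list median was -0.033, -0.0013, -0.11 and 0.11 on BSKO 1 to 4, against 0.024, 0.0013, -0.0011 and -0.048 on WT 1 to 4. Dbh, the enzyme that makes the noradrenaline on which PNMT acts, differed by -0.17 (SE 0.15, adjusted p = 0.604) with 8 arrays and by -0.11 (SE 0.14) without BSKO 2. The probe sets closest to 1449804_at over the 7 arrays other than BSKO 2, by the root mean square difference of values set to mean 0, were those of Col6a1 (0.185), Rap1gap (0.187) and Odf4 (0.199), where Pnmt spanned 1.41 over these arrays.

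**Figure D2:**
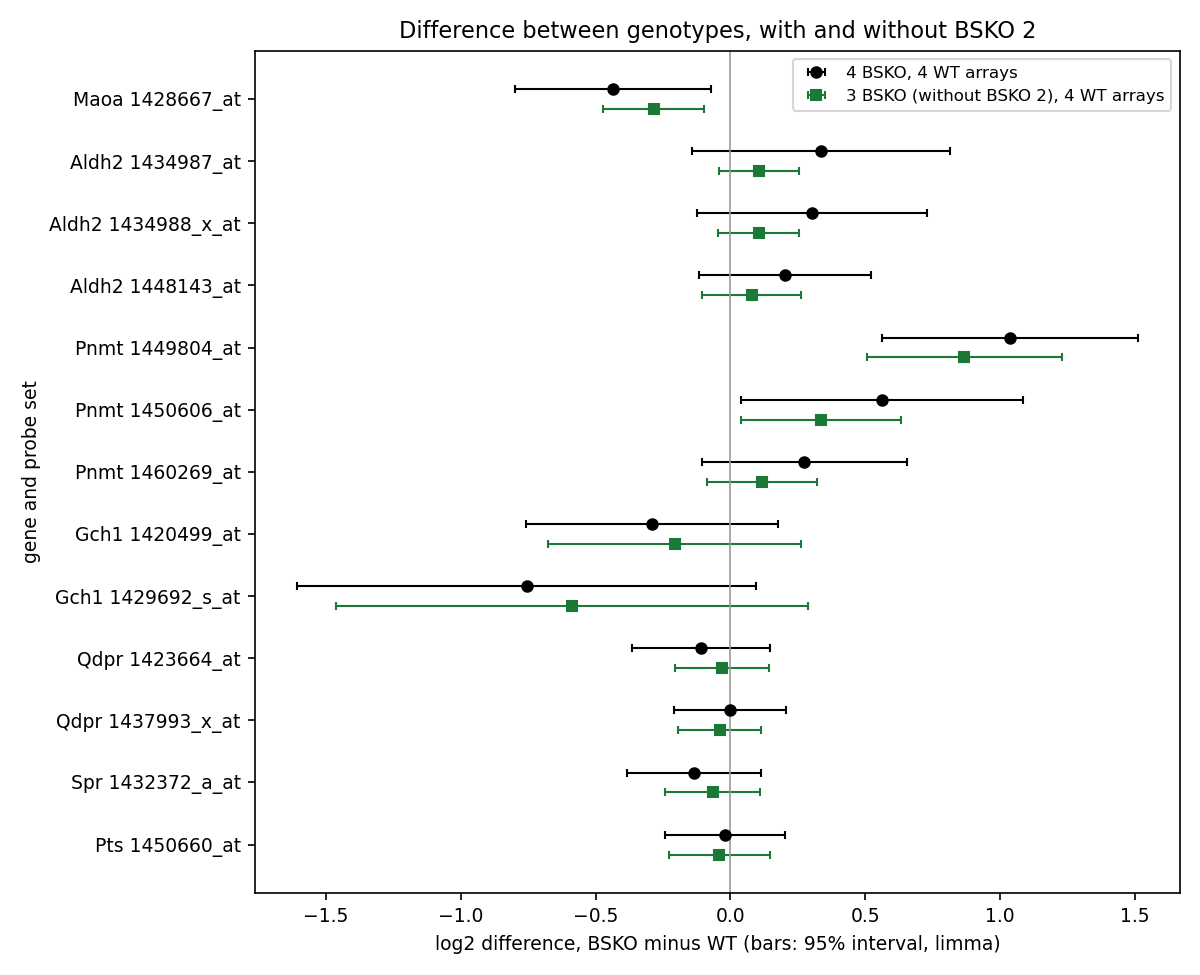
Log2 difference, BSKO minus WT (x axis), with its 95% interval from limma for each of the 13 probe sets (y axis), with 8 arrays in black and without BSKO 2 in green. The intervals lie wholly above 0 for Pnmt 1449804_at and 1450606_at and, with its deposited BSKO 1 value kept, wholly below 0 for Maoa, before any adjustment over probe sets.

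Maoa was lower on the BSKO arrays in the deposited values, and its BSKO 1 value is not an ordinary one. Probe set 1428667_at had -0.42, -0.88, -0.27 and -0.12 on BSKO 1 to 4, against 0.029, 0.015, 0.0055 and -0.0055 on WT 1 to 4. The WT arrays lay within 0.0346 of each other, while the BSKO arrays spanned most of the range of 0.908. The BSKO 1 value differed from the mean of the other 3 BSKO arrays by 3.33e-10. On that array the closest of all other probe sets differed by 4.90e-05. Across the other 7 arrays 3 probe sets, 1 on WT 1 and 2 on WT 3, came within 1e-05 of the mean of the rest of their group, the closest by 7.9e-07. Maoa was also the 1 probe set of 22690 whose median over the arrays was not 0, and a median of 0 with the other 7 values as they are would need a BSKO 1 value of at least 0.0055. Such a value would lie above WT 4, and the groups would then overlap, so the separation of the 4 BSKO from the 4 WT arrays rests on the deposited BSKO 1 value.

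With the BSKO 1 value set apart, the mean was -0.42 ± 0.40 (SD, n = 3) in BSKO and 0.011 ± 0.015 in WT (SD, n = 4). The difference was -0.44 (SE 0.18, 95% interval -0.86 to -0.0089), or 1.35-fold lower, and did not pass over all probe sets (limma adjusted p = 0.455). Setting the value apart could not change this difference, since the value equals the mean of the other BSKO arrays. A two-sided exact permutation test over the 35 arrangements of these 7 arrays gave p = 0.0571, the smallest it can give. That test leaves out BSKO 1, which a median of 0 would place at 0.0055 or above. Without BSKO 2 as well, 2 BSKO arrays were left and the difference was -0.21 (SE 0.077, limma adjusted p = 0.207, exact permutation p = 0.133, the smallest that 15 arrangements allow). With BSKO 1 apart the difference was thus -0.44 with BSKO 2 and -0.21 without it. With the deposited BSKO 1 value kept, the difference was -0.28 (SE 0.081, adjusted p = 0.121) without BSKO 2. Of the 2 arrays that carried neither doubt, BSKO 3 lay 0.26 below the lowest WT array and BSKO 4 lay 0.12 below it.

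Over the 6 arrays other than BSKO 1 and BSKO 2, the probe sets closest to Maoa were those of Dbi (root mean square difference 0.0137), Fbxo9 (0.0171) and Adarb1 (0.0192), and Maoa spanned 0.299. The Maoa promoter is shown because the study names SIRT1, a regulator of transcription factors, as its subject and Maoa was the one member whose deposited BSKO values all lay below WT. The stretch runs from 250 bases before to 50 bases after the RefSeq start of the gene (GRCm38.p6, chrX:16619448-16619747, plus strand). Capitals mark CANNTG, the E-box read by basic helix-loop-helix factors, and GGGCGG, the GC box read by Sp1, on either strand.
Maoa: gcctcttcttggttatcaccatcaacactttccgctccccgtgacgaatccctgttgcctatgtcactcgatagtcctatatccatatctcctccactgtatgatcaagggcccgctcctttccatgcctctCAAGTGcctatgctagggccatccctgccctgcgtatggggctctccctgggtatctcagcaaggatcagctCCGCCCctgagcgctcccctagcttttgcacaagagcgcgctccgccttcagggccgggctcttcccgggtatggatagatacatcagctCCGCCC
The E-box match lies at bases -118 to -113 from the start, and the 2 GC boxes, both on the minus strand, at -46 to -41 and at 45 to 50, with no overlap. Of 32851 promoters of this length 72.3% held a CANNTG and 35.7% a GGGCGG. No binding was measured here.

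Aldh2 was far higher on BSKO 2 than on any other array and close to WT on the remaining BSKO arrays. Probe set 1434987_at had 0.044, 0.95, 0.035 and 0.015 on BSKO 1 to 4, against -0.17, -0.015, -0.067 and -0.050 on WT 1 to 4. The groups did not overlap, yet BSKO 4 and WT 2 differed by only 0.029. The difference was 0.33 (SE 0.21, limma adjusted p = 0.554) with 8 arrays and 0.11 (SE 0.065, adjusted p = 0.400) without BSKO 2. Probe set 1434988_x_at gave 0.30 and 0.10 in these fits and 1448143_at gave 0.20 and 0.079, with adjusted p values of 0.549 and 0.577 with 8 arrays and of 0.405 and 0.621 without BSKO 2. On BSKO 2 they had 0.83 and 0.52, while the other BSKO arrays lay between 0.0021 and 0.083 on 1434988_x_at and between -0.052 and 0.11 on 1448143_at. The WT arrays ranged from -0.13 to -0.0021 and from -0.18 to 0.051 on these probe sets, so all 3 Aldh2 probe sets shared the high value on BSKO 2. Without it the 95% intervals allowed differences from -0.10 to 0.26 over the 3 probe sets.

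Gch1, which catalyses the rate-limiting step of tetrahydrobiopterin synthesis, varied most among the WT mice. Probe set 1429692_s_at had 0.28, -0.64, -0.22 and 0.037 on BSKO 1 to 4, against 1.28, 1.30, -0.059 and -0.037 on WT 1 to 4. WT 1 and WT 2 stood above all other arrays, and WT 3 and WT 4 lay among the BSKO arrays. The difference was -0.76 (SE 0.37, 95% interval -1.61 to 0.094, limma adjusted p = 0.497) with 8 arrays and -0.59 (SE 0.38, adjusted p = 0.423) without BSKO 2. Probe set 1420499_at was also highest on WT 1 and WT 2, with 0.058, -0.34, -0.16 and 0.087 on BSKO 1 to 4, against 0.74, 0.27, -0.058 and -0.14 on WT 1 to 4. Its difference was -0.29 (SE 0.20, adjusted p = 0.580) with 8 arrays and -0.21 (SE 0.20, adjusted p = 0.611) without BSKO 2.

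The Gch1 difference depended on which replicate numbers were compared. On probe set 1429692_s_at it was -1.47 within replicates 1 and 2, or -1.01 with BSKO 1 as the only BSKO array, and -0.042 within replicates 3 and 4. On 1420499_at it was -0.65, -0.45 and 0.064 in the same order. WT 1 and WT 2 averaged 1.34 above WT 3 and WT 4 on 1429692_s_at, more than the difference between the genotypes. The labels do not say that a replicate number marks a shared batch, litter or dissection.

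For markers of monoaminergic neurons, in which Gch1 is known to be abundant, the list median showed the same split. Th, Ddc, Slc6a3, Slc6a4, Gata3, En1, Nr4a2 and Pitx3 were each higher on WT 1 and WT 2 than on WT 3 and WT 4. Dbh (-0.25, 0.26, 0.0021 and 0.12 on WT 1 to 4) and Slc6a2 (0.20, -0.14, -0.0035 and -0.095) did not split so. The median of the 10 measured of 13 listed genes was -0.022, -0.073, -0.51 and 0.084 on BSKO 1 to 4, against 1.49, 1.20, 0.0025 and -0.11 on WT 1 to 4. Striatal projection neuron markers ran the other way, with a median over 7 measured of 11 genes of 0.059, 0.14, 1.12 and 1.03 on BSKO 1 to 4, against -1.94, -1.79, 0.0057 and -0.084 on WT 1 to 4. With that striatal median as a covariate the Gch1 difference turned to 0.10 (limma adjusted p = 0.904) on 1429692_s_at with 8 arrays and to 0.54 (adjusted p = 0.301) without BSKO 2, and that of 1420499_at to 0.087 and 0.30. Every BSKO array had a higher striatal median than every WT array, so this fit cannot fully part the median from genotype. The dopamine transporter gene Slc6a3 had -3.19, -4.41, -4.73 and 0.96 on BSKO 1 to 4, against 2.02, 2.08, 0.0033 and -0.0033 on WT 1 to 4. In both limma fits none of the 10 monoaminergic and 7 striatal genes passed, with 2 and 7 at an unadjusted p under 0.05, against 12.2% of all genes with 8 arrays and 21.2% without BSKO 2. The part of these neurons in the Gch1 values was not tested.

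**Figure D3:**
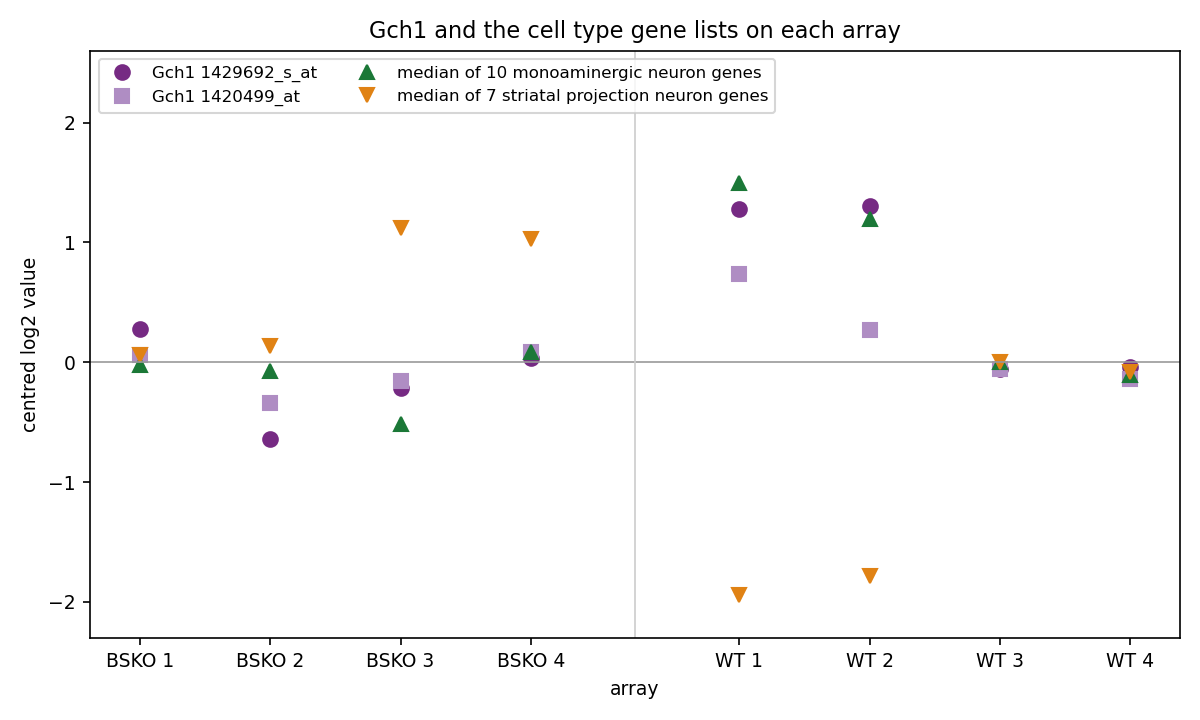
Centred log2 values (y axis) of both Gch1 probe sets and the medians of the monoaminergic and striatal gene lists on each array (x axis), BSKO left and WT right. WT 1 and WT 2 are high for Gch1 and the monoaminergic median and low for the striatal median, while WT 3 and WT 4 lie close to 0 for all 4.

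The Gch1 promoter is shown because both Gch1 probe sets were highest on the same 2 arrays. It covers the same stretch around the RefSeq start (GRCm38.p6, chr14:47189364-47189663, minus strand, written in the direction of transcription). Capitals mark GGGCGG, TGACGCAA, a variant of the cAMP response element, and CCAAT.
Gch1: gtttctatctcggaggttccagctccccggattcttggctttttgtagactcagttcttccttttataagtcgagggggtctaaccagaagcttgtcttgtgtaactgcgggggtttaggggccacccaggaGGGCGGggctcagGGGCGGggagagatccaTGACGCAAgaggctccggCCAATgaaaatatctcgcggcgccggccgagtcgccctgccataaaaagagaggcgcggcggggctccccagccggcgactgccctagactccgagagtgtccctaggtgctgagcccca
TGACGCAA lies at -88 to -81 and CCAAT at -70 to -66, and upstream of them are GC boxes at -118 to -113 and -105 to -100, all on the strand shown and without overlap. Among all promoters of this length 0.49% held TGACGCAA and 37.4% held CCAAT on either strand. No CANNTG was found in this stretch of Gch1. Of the 8 genes 5 had a promoter in the RefSeq table (Maoa, Gch1, Qdpr, Spr and Pts), and among these 5 TGACGCAA was found in Gch1 only. At a share of 0.49% its absence from the others is the usual outcome. No other form of the cAMP response element was searched, so no trait particular to Gch1 is read from this.

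Qdpr, Spr and Pts, the other enzymes of tetrahydrobiopterin synthesis and recycling, varied little. The Qdpr probe set 1423664_at had 0.048, -0.32, -0.091 and 0.026 on BSKO 1 to 4, against 0.069, -0.069, -0.026 and 0.12 on WT 1 to 4, and differed by -0.11 (SE 0.11, limma adjusted p = 0.681) with 8 arrays and by -0.030 (SE 0.076, adjusted p = 0.861) without BSKO 2. The Qdpr probe set 1437993_x_at ranged from -0.13 to 0.11 in BSKO and from -0.036 to 0.030 in WT, and differed by -0.0030 (SE 0.091, adjusted p = 0.990) and by -0.040 (SE 0.067, adjusted p = 0.780) in these fits. Spr, on 1432372_a_at, had 0.064, -0.26, -0.029 and 0.0028 on BSKO 1 to 4, against 0.15, 0.18, -0.0028 and -0.015 on WT 1 to 4. WT 1 and WT 2 were the highest arrays for Spr as for Gch1, by a mean of 0.18 over WT 3 and WT 4. The Spr difference was -0.13 (SE 0.11, adjusted p = 0.613) with 8 arrays and -0.066 (SE 0.077, adjusted p = 0.671) without BSKO 2. It was -0.10 between BSKO 1 and the mean of WT 1 and WT 2, and -0.0039 within replicates 3 and 4. Pts, on 1450660_at, had 0.0074, 0.028, -0.18 and -0.0037 on BSKO 1 to 4, against 0.089, -0.13, -0.039 and 0.0037 on WT 1 to 4, a difference of -0.019 (SE 0.097, adjusted p = 0.933) with 8 arrays and of -0.041 (SE 0.082, adjusted p = 0.822) without BSKO 2. Without BSKO 2 the 95% intervals of these 4 probe sets ran from -0.24 to 0.15, so differences of either sign up to those sizes could not be told from 0 with these arrays.

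**Figure D4:**
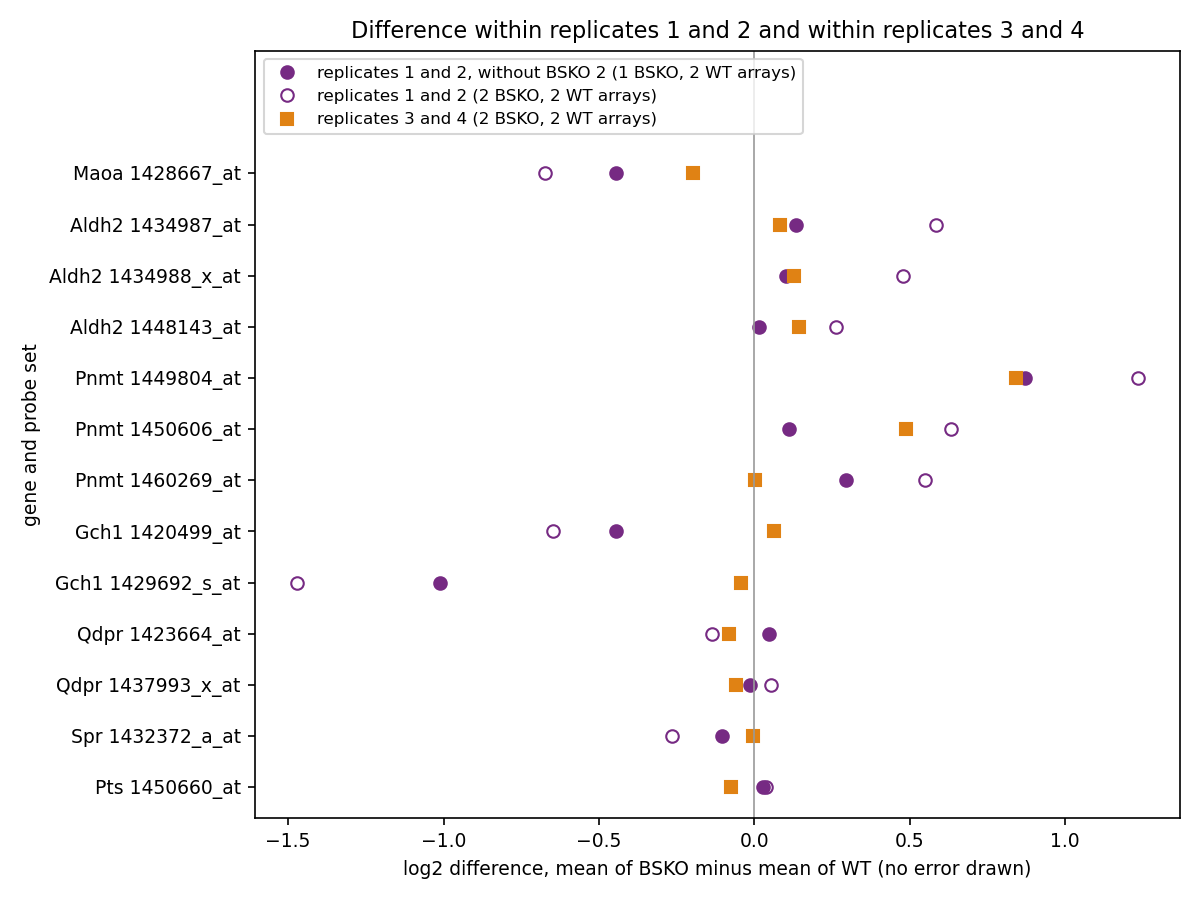
Log2 difference, BSKO minus WT (x axis, no error drawn), for each of the 13 probe sets (y axis) within replicates 1 and 2 (circles, filled without BSKO 2) and within replicates 3 and 4 (squares). Pnmt 1449804_at has 0.87 and 0.84 for the filled circle and the square, whereas Gch1 1429692_s_at has -1.01 and -0.042. For Maoa the filled circle (-0.45) rests on the BSKO 1 value alone, which the text sets apart, and the open circle includes that value.

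The size of the Pnmt and Maoa differences was also read within these pairs of replicates. Pnmt 1449804_at differed by 0.87 between BSKO 1 and the mean of WT 1 and WT 2, and by 0.84 within replicates 3 and 4. For 1450606_at these values were 0.11 and 0.49, and for 1460269_at 0.30 and 0.0015, so the 2 sets of replicates did not rank the probe sets alike. Maoa differed by -0.20 within replicates 3 and 4. Within replicates 1 and 2 its BSKO side rests on the value set apart and on BSKO 2 (-0.67 for both).

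The other genes of the pathway gave no call in either limma fit. Of the 5 measured synthesis genes (of 7), Ddc, the decarboxylase that forms dopamine and serotonin, differed by -0.78 (SE 0.43, adjusted p = 0.472), Th, tyrosine hydroxylase, by -0.77 (SE 0.61), and Aanat, of melatonin synthesis, by 0.42 (SE 0.24) with 8 arrays. Without BSKO 2 these differences were -0.86 (SE 0.48) for Ddc, -0.77 (SE 0.69) for Th and 0.14 (SE 0.072) for Aanat, which had 1.18 on BSKO 2 and 0.013 to 0.22 on the other BSKO arrays. None had an unadjusted p under 0.05 in either fit. Among 4 measured transporters (of 5) Slc6a3 differed by -3.87 (SE 1.20, adjusted p = 0.281), Slc18a1, a vesicular monoamine transporter, by -0.47 (SE 0.17, adjusted p = 0.349) and the serotonin transporter gene Slc6a4 by -0.89 (SE 0.51), with 2 at an unadjusted p under 0.05, also without BSKO 2. Without BSKO 2 the differences were -3.35 (SE 1.26) for Slc6a3, -0.43 (SE 0.17) for Slc18a1 and -1.04 (SE 0.56) for Slc6a4. The median difference with 8 arrays was -0.17 for synthesis and -0.68 for transport, beside 0.030 over all genes, and 0.0726% of all genes passed. Without BSKO 2 these medians were -0.11 and -0.73, beside 0.015 over all genes. The transport list split the WT arrays: its median was 1.03 and 1.04 on WT 1 and WT 2, against -0.00011 and -0.049 on WT 3 and WT 4.

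Of 12 further genes of monoamine breakdown 10 were measured, and none passed in either fit (2 at an unadjusted p under 0.05 in each). With 8 arrays 8 of them had a lower mean in BSKO, with a median of -0.17, and without BSKO 2 6 were lower and 4 higher, with a median of -0.10. Sult1a1, a sulfotransferase that conjugates phenols, had -0.49, -0.47, -0.22 and -0.20 on BSKO 1 to 4, against 0.91, 0.85, 0.20 and 0.24 on WT 1 to 4. All BSKO arrays were below all WT arrays, with WT 1 and WT 2 again far above WT 3 and WT 4. The difference was -0.90 (SE 0.19, limma adjusted p = 0.132) with 8 arrays and -0.86 (adjusted p = 0.0703) without BSKO 2. Meningeal and fibroblast genes, 9 of 9 measured, had a list median of -0.40, -0.51, -0.33 and -0.22 on BSKO 1 to 4, against 0.57, 0.69, 0.13 and 0.12 on WT 1 to 4, likewise higher on WT 1 and WT 2 than on WT 3 and WT 4. None of the 9 passed with 8 arrays, and 7 had an unadjusted p under 0.05, where 12.2% of all genes did. Without BSKO 2, where 2.15% of all genes passed, Lum (-0.85, limma adjusted p = 0.0455) and Ogn (-1.39, adjusted p = 0.0300), 2 proteoglycans of connective tissue named after their values were seen, fell, and 8 had an unadjusted p under 0.05, where 21.2% of all genes did. Their part in the Sult1a1 values was not tested. Aldh1a1, an aldehyde dehydrogenase of dopamine neurons, differed by -0.84 (SE 0.30, adjusted p = 0.356) with 8 arrays and by -0.63 (SE 0.27, adjusted p = 0.239) without BSKO 2. Aldh1b1, a mitochondrial one, differed by 0.58 (SE 0.29, adjusted p = 0.452) and by 0.26 (SE 0.11, adjusted p = 0.217) in these fits, with 1.38 on BSKO 2 and -0.037 to 0.26 on the other BSKO arrays. Of 8 other genes that regulate or use tetrahydrobiopterin 4 were measured, 2 higher and 2 lower with a median of 0.0074 with 8 arrays, and all 4 lower with a median of -0.031 without BSKO 2. The neuronal nitric oxide synthase gene Nos1 differed by -0.39 (SE 0.30) with 8 arrays and by -0.060 (SE 0.14) without BSKO 2, and its value on that array was -1.36. Pcbd1, which recycles the cofactor, differed by 0.13 (SE 0.35) and -0.027 (SE 0.36), and Nos3 by 0.025 (SE 0.093) and -0.0057 (SE 0.075), so both turned sign without BSKO 2. None of the 4 had an unadjusted p under 0.05 in either limma fit.

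Astrocyte genes were also set beside these enzymes, since ALDH2 is abundant in astrocytes. All 12 listed genes were measured, and their median was -0.041, -0.39, 0.0067 and -0.058 on BSKO 1 to 4, against 0.16, 0.12, 0.051 and 0.036 on WT 1 to 4. None passed with 8 arrays or without BSKO 2, with 3 and 5 at an unadjusted p under 0.05, where 12.2% and 21.2% of all genes had one. On BSKO 2 Maoa and the astrocyte list were both low while Aldh2 was high, and the part of astrocytes in these values was not tested. Neuron genes, 7 of 7 measured, had a list median of -0.91 on BSKO 2 and of -0.070 to 0.040 on the other BSKO arrays, against 0.028 to 0.062 on the WT arrays. None of the measured microglial (9), oligodendrocyte (7), endothelial (7) and choroid plexus (5) genes passed in either limma fit, with 1, 0, 0 and 0 at an unadjusted p under 0.05 with 8 arrays and 0, 1, 1 and 0 without BSKO 2, against the same 12.2% and 21.2% of all genes. The choroid plexus median was -1.82 on BSKO 4 and -0.21 to 0.68 on the other BSKO arrays, against -0.14 to 0.38 on the WT arrays.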

How the data were processed

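RNA from 8 whole brains, 4 BSKO and 4 WT, was measured on 8 single-channel arrays, and their number limits the precision. RMA was used by the authors, per the submitters' processing notes, in a version not given in the sources used here. Log2 values for 22690 probe sets were deposited. Of these 22689 had a median within 1e-05 of 0 over the 8 arrays, so probe sets had been centred, a step that no label records.

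The 64 control probe sets were left out. Symbols came from the platform annotation, updated by Entrez number to RefSeq (GRCm38.p6, names and gene order only): 20380 tested probe sets had 1 symbol, 20351 matched and none changed. Groups followed the sample titles. Genotypes were compared by lmFit and eBayes of limma 3.58.1 (R 4.3.3, two-sided, no covariate) over all 22626 probe sets, or 12393 gene means. Maoa was refitted with its BSKO 1 value missing. Scripts were tested on simulated data. Figures were drawn with matplotlib 3.10.9.

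The members, lists, alternatives and named-gene rule were chosen with earlier results of these data known. The rule named all members, up to 3 genes per pathway list with the smallest p, called list genes, and the 3 probe sets closest to Maoa and to each called member. Leaving out arrays for the Pnmt mean and the gene neighbours were added after seeing the data. Dim probe sets were not filtered out, as centred values carry no brightness.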

Additional observations from a re-analysis of the deposited data

Results flagged for a closer look

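Within the 4 BSKO arrays 3 values stood far from the rest of their group by Dixon's test at its 95% critical value of 0.829, among 26 groups of 4 arrays tested, of which chance flags about 1 in 20. BSKO 2 was far above the next array for the Aldh2 probe sets 1434987_at (0.95 against 0.044, a gap of 0.969 of the range) and 1434988_x_at (0.83 against 0.083, a gap of 0.902 of the range). BSKO 3 was below the others for Pts 1450660_at (-0.18 against -0.0037, a gap of 0.849 of the range).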

How the results depend on the processing

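The number of called probe sets depended strongly on the settings. With 8 arrays 7 were called, and 678 after quantile normalization, 108 with trend and robust settings, 2617 with array weights, 84 with a term for replicates 1 and 2 against 3 and 4, 66 at an adjusted p of 0.10, and 0 to 369 when 1 array was left out. With the replicate number as a block 0 were called (limma, 2121 at an unadjusted p under 0.05), and with the striatal covariate 0 (1403). Without BSKO 2, 369 were called, and 571 after quantile normalization, 3005 with array weights, 744 with the term for replicates, 2 with the striatal covariate, 1131 at 0.10, 19 to 1069 when a further array was left out, and 0 with the replicate block (limma, 3672 at an unadjusted p under 0.05). For each probe set the mean of the genotype was subtracted from every array, and these deviations were correlated between BSKO and WT arrays. For arrays of the same number the correlations of the deviations were 0.0858, 0.0562, 0.140 and 0.129, and not every array correlated best with its own number. BSKO 1 and BSKO 2 correlated positively with WT 1 and WT 2 (0.0562 to 0.0878) and negatively with WT 3 and WT 4 (-0.110 to -0.0374). BSKO 3 and BSKO 4 did the reverse (0.0307 to 0.165 with WT 3 and WT 4, -0.147 to -0.0487 with WT 1 and WT 2). Deviations from a genotype mean cancel within the genotype, so positive correlations with some arrays force negative ones with others. The reverse pattern is therefore no separate result. These values cannot decide whether the numbers pair single arrays. Under the block Pnmt 1449804_at without BSKO 2 was 0.77 (adjusted p = 0.0905). Maoa with BSKO 1 apart lay between -0.59 and -0.21 when 1 array was left out and passed in none of these fits.

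Over the 13 probe sets in both fits, 411 of 447 alternative values kept direction and side of the threshold, 6 newly passed, 8 no longer passed and 22 changed sign. These are not all separate results, since the setting with 1 mean per gene gives each probe set of a gene the same value. Pnmt 1450606_at and 1460269_at newly passed only as that mean (0.44, limma adjusted p = 0.0250). Leaving BSKO 2 out of the 8 arrays also repeats the other main fit. With the striatal covariate and 8 arrays the values that changed sign were Gch1 1420499_at (0.087), Gch1 1429692_s_at (0.10), Qdpr 1437993_x_at (0.015) and Pts (0.028), and without BSKO 2 they were Gch1 1420499_at (0.30), Gch1 1429692_s_at (0.54) and Spr (0.089). With array weights they were Qdpr 1437993_x_at (0.0077) and Pts (0.0096) with 8 arrays, and Qdpr 1423664_at (0.0024), Qdpr 1437993_x_at (0.011) and Pts (0.012) without BSKO 2. When 1 array was left out Qdpr 1437993_x_at ranged from -0.040 to 0.040 and Pts from -0.055 to 0.030 with 8 arrays, and without BSKO 2 Qdpr 1437993_x_at ranged from -0.077 to 0.0057, Qdpr 1423664_at from -0.061 to 0.012 and Pts from -0.077 to 0.021. The cause was not tested. Probe sets that can cross-hybridise have no value in the fit without them. No dimness filter could be applied, since the centred values carry no signal over background.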

Other observations

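The genes on either side of Pnmt on chromosome 11 were read after the Pnmt values had been seen. Tcap, next to Pnmt and known as a titin-binding protein of muscle, had 0.033, 1.72, 0.81 and 1.07 on BSKO 1 to 4, against -0.49, -0.23, -0.033 and -0.17 on WT 1 to 4, so the groups did not overlap. Its difference was 1.14 with 8 arrays (limma adjusted p = 0.280) and 0.87 without BSKO 2 (adjusted p = 0.107). Stard3, the next gene, differed by 0.21 (adjusted p = 0.524) and 0.27 (adjusted p = 0.168). Ppp1r1b, which encodes DARPP-32 of striatal neurons and lies beyond Stard3, had 0.039, -0.43, 1.42 and 1.33 on BSKO 1 to 4, against -2.36, -2.14, 0.12 and -0.039 on WT 1 to 4. The difference of Ppp1r1b was 1.70 with 8 arrays (limma adjusted p = 0.434) and 2.04 without BSKO 2 (adjusted p = 0.167), and its WT arrays split by replicate number. Those of Pnmt 1449804_at had means of -0.50 for WT 1 and WT 2 and -0.39 for WT 3 and WT 4. Any link between the values of Pnmt and those of its neighbours was not tested. On the other side Pgap3, next to Pnmt, had no probe set with that symbol alone. Beyond it Erbb2 differed by 0.57 with 8 arrays and 0.18 without BSKO 2 (adjusted p = 0.396), and Mien1 by 0.22 and 0.14 (adjusted p = 0.503). Measured neighbours of Maoa and Gch1 were read too and gave no call in either limma fit. Of all probe sets 0.0309% were called with 8 arrays and 1.63% without BSKO 2.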
